A study of Mus musculus with 8 samples.

Results

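Iron metabolism genes of the mouse liver were compared between CAPZ_KO and WT animals: the hepcidin gene Hamp, its upstream signals and sensors Bmp6, Tfr2 and Hfe, the importers Tfrc and Slc11a2, the exporter Slc40a1 with the ferroxidase gene Cp, and the ferritin genes Fth1 and Ftl1. They were chosen by gene symbol, 10 of the 24421 symbols in the count table, and all 10 passed the filter on low counts. The CAPZ_KO group held 4 liver libraries from Albumin-CreERT2;Capzb-fl/fl mice that had been given tamoxifen in 5 daily injections from 4 to 6 weeks of age, which makes Cre, driven by the albumin promoter and so active in hepatocytes, delete part of Capzb, which encodes the actin capping protein's beta subunit. The WT group held 4 libraries of 2 kinds of control, Capzb-fl/fl mice without the Cre transgene that had been injected, and Albumin-CreERT2;Capzb-fl/fl mice that had not. All animals were C57BL/6N, carried the floxed Capzb alleles and were adults of 8 to 10 weeks, and the livers had been perfused to wash out blood. Cells that do not use the albumin promoter keep Capzb. The labels do not tell which WT library is which kind of control, so tamoxifen exposure cannot be told apart from the deletion.

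Hepcidin is a peptide hormone that hepatocytes secrete when iron is plentiful or during inflammation. It binds ferroportin, the only known cellular iron exporter, and causes its loss from the cell surface, which keeps iron inside macrophages, enterocytes and hepatocytes. Transcription of Hamp is driven by BMP ligands that liver endothelial cells release, acting through SMAD proteins, and by interleukin 6 acting through STAT3, while HFE and transferrin receptor 2 adjust it to the iron carried by transferrin. Inside the cell the iron regulatory proteins bind hairpins called iron-responsive elements in mRNAs of iron genes, stabilising the transferrin receptor mRNA and blocking translation of ferritin and ferroportin mRNA when iron is scarce.

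Mice carry a second hepcidin gene, Hamp2, beside Hamp on chromosome 7, and the promoter stretch of Hamp that holds its BMP and STAT3 elements is shown beside the aligned stretch of Hamp2, because Hamp2 was called between the groups and Hamp was not. The Hamp stretch lies at chr7:30944064-30944168 and the Hamp2 stretch at chr7:30924213-30924317, both on the minus strand of GRCm38.p6 (RefSeq). The Hamp2 stretch lies before the RefSeq start of Hamp2, but inside the longer limits that GENCODE gives this gene (chr7:30922372-30924681). Capitals mark, from left to right in Hamp, the GGCGCC core of the BMP-responsive element, the STAT3 site and an AP-1-type motif, and in Hamp2 the bases aligned with them.
Hamp: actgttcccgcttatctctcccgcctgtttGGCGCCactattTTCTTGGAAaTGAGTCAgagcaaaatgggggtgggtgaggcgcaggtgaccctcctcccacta
Hamp2: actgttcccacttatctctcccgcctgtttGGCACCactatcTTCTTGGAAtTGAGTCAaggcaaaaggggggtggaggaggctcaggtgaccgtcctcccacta
The stretches differed at 11 of 105 bases. Inside the capitals the single difference was G34A, counted from 1 at the first base of the Hamp stretch, where Hamp2 carries the second base given, and GGCGCC was not found in the Hamp2 window. The 3 motifs do not overlap, and of 32851 RefSeq promoter windows (250 bases before to 50 after a start) 11.9% held GGCGCC, 0.417% TTCTTGGAA and 5.20% TGAGTCA on either strand. In the windows of Tfrc, Tfr2, Fth1, Ftl1, Hfe, Cp and Bmp6, GGCGCC was found at Tfrc and TGAGTCA at Hfe.

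Matches to the iron-responsive element are shown because these hairpins are where iron regulatory proteins bind the mRNAs. They were searched in untranslated regions of GENCODE vM21 transcripts on GRCm38 as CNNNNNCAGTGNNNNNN with 5 paired stem bases, and capitals mark the bulged C and the loop. Tfrc carried 4 matches in its 3′ untranslated region on the plus strand, in this order at chr16:32631218-32631247, chr16:32631597-32631626, chr16:32631662-32631691 and chr16:32631709-32631738. Elements that depart from this strict pattern would be missed, so 4 is not a count of all elements in Tfrc. The others lay in 5′ untranslated regions, of Slc40a1 at chr1:45925465-45925494 (minus), of Fth1 at chr19:9982731-9982760 (plus) and of Ftl1 at chr7:45459779-45459808 (minus).
Tfrc site 1: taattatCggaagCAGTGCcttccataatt
Tfrc site 2: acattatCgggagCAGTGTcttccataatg
Tfrc site 3: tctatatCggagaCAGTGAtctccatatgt
Tfrc site 4: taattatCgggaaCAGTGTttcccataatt
Slc40a1: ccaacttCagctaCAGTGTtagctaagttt
Fth1: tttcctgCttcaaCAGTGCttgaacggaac
Ftl1: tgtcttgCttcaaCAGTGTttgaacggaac
This pattern was found in the 5′ untranslated regions of 0.142% and the 3′ untranslated regions of 0.589% of 21901 protein-coding genes, and a match is a description of the sequence only. Slc11a2, whose mRNA is known to have a form with such an element in its 3′ untranslated region, had no match, which says only that this strict pattern was not found in the regions searched. None of the 4 members that carry a printed element passed the test between CAPZ_KO and WT after TMM scaling. Of all genes tested 41.4% passed it, and 4 genes are too few to set against that share.

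Libraries held 13122355 to 16984971 counts in CAPZ_KO and 12060350 to 18916315 in WT. Levels are given as CPM, read counts scaled to library size by TMM, a scaling that sets the median change of all genes near 0, and a gene is called where its adjusted p from edgeR's quasi-likelihood test is under 0.05. Capzb stood at 64.5 to 79.6 CPM in CAPZ_KO and at 109 to 140 CPM in WT, with a log2 fold change of −0.73 ± 0.125 (SE, n = 4 each, edgeR adjusted p = 0.00134). Of 12985 genes tested, 41.4% were called, 22.4% higher and 19.0% lower in CAPZ_KO, and 40.3% had groups of libraries that did not overlap. With library sizes alone instead of TMM the median gene stood at 0.622 (log2), 7665 genes were called higher and 700 lower, and Capzb was at −0.10. The TMM factors ran over 1.18 to 1.33 (CAPZ_KO) and 0.774 to 0.847 (WT). Summed hepatocyte markers were lower in CAPZ_KO (42913 to 62532 CPM) than in WT (172080 to 219855 CPM), with 8 of 9 tested called lower and Ass1 left untested. Cholangiocyte markers summed to 370 to 1093 CPM in CAPZ_KO and 43.6 to 80.4 CPM in WT, with 5 of 8 called higher. Replicate 4 of each group had Xist counts and no counts of Y-linked genes, and the other 6 libraries had Y-linked counts, so each group held 1 library that reads as female. Replicates are separate samples in the labels, not stated to be separate animals, so the p-values speak of the spread among these samples.

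Among the 10 iron genes, Bmp6 and Cp were higher and Tfr2 was lower in CAPZ_KO liver, and the same 3 were the ones whose groups did not overlap. The remaining 7, Hamp, Hfe, Tfrc, Slc11a2, Slc40a1, Fth1 and Ftl1, did not pass the test. Of all genes, 41.4% were called and 40.3% had groups that did not overlap. With only 10 genes, 3 of 10 cannot be told from either share. The members' median log2 fold change was 0.10, against 0 over all genes. The same 3 calls were made in every alternative tried, including without both female libraries and without each library in turn. With library sizes alone Tfrc, Slc11a2, Fth1, Ftl1 and Hfe were called higher as well. Relative to the median gene under that scaling, Bmp6 was at 1.84, Cp at 0.86 and Tfr2 at −1.18.

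**Figure D1:**
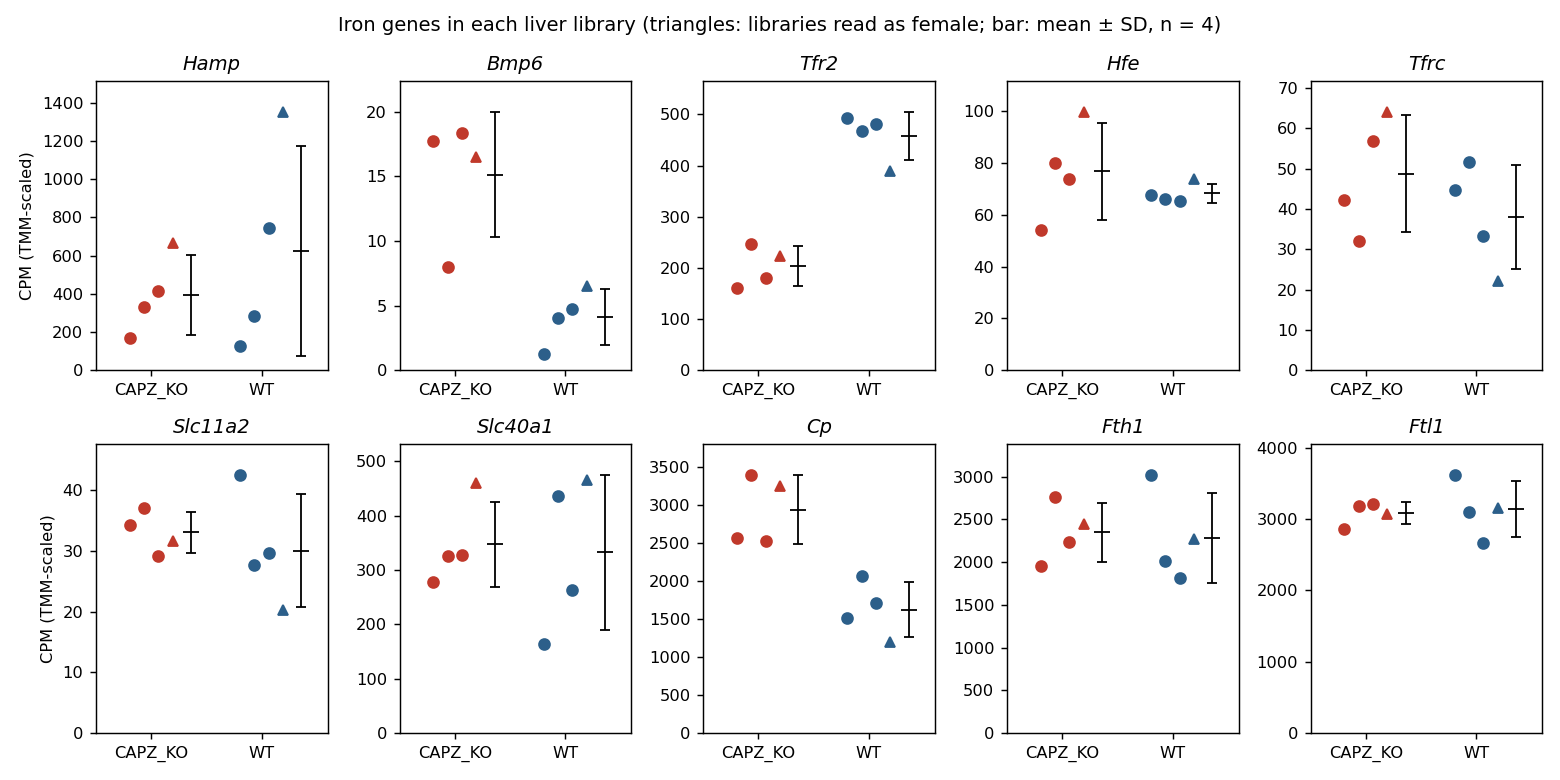
Level of each of the 10 iron genes (vertical axis, TMM-scaled CPM) in the 4 CAPZ_KO libraries (left) and the 4 WT libraries (right) of each panel, with the mean ± SD beside the points and triangles for the libraries that read as female. Tfr2 lies between 161 and 247 CPM in CAPZ_KO and between 390 and 493 CPM in WT, while Hamp reaches from 167 to 664 CPM in CAPZ_KO and from 124 to 1351 CPM in WT.

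Hamp, at chr7:30942368-30944032 (minus), encodes hepcidin. It had 167, 328, 416 and 664 CPM in CAPZ_KO livers, against 124, 284, 741 and 1351 CPM in WT livers. The lowest and the highest of the 8 libraries were both WT, and the CAPZ_KO values lay inside the WT range. The means were 394 ± 208 CPM in CAPZ_KO and 625 ± 550 CPM in WT (SD, n = 4 each). Hamp had a log2 fold change of −0.67 ± 0.696 (SE), an edgeR adjusted p of 0.474 and a 95% interval of −2.37 to 1.04. Without WT 4 the log2 value was 0.03, so the sign rests on that library. The highest library was 3.97 times the lowest in CAPZ_KO and 10.9 times in WT, the widest spread among the 10 genes in both groups. The highest Hamp value of each group was in its library that reads as female, at 664 CPM in CAPZ_KO and 1351 CPM in WT. Among male libraries Hamp spanned 167 to 416 CPM in CAPZ_KO and 124 to 741 CPM in WT.

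Hamp2, at chr7:30922372-30924681 (minus), whose mature peptide is known not to share the iron-lowering action of hepcidin in mice, was lower in CAPZ_KO. It had 8.38, 12.5, 8.47 and 20.6 CPM in CAPZ_KO livers, against 77.0, 160.0, 40.1 and 799 CPM in WT livers. No CAPZ_KO library reached the lowest WT library. The log2 fold change was −4.43 ± 1.02 (SE, n = 4 each), with an edgeR adjusted p of 0.0102. Without WT 4, whose level was far above that of the other 3, it was −2.89, and the adjusted p was 0.00311 (9.14e-06 to 0.0366 over all alternatives). Of the counts of both genes together, Hamp2 made up 4.78%, 3.67%, 1.99% and 3.01% in CAPZ_KO and 38.3%, 36%, 5.13% and 37.2% in WT. The exact binomial 95% intervals, which cover counting error only, reached 5.49% at most in CAPZ_KO and began at 4.73% in WT 3, so the interval of CAPZ_KO 1 overlaps that of WT 3. The transcripts are 94.6% identical over 410 aligned bases, and 60 of 361 windows of 50 bases in Hamp (16.6%) also occur in Hamp2. How the authors' counting divided such reads is not given in the sources used here, so the division between Hamp and Hamp2 is uncertain.

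**Figure D2:**
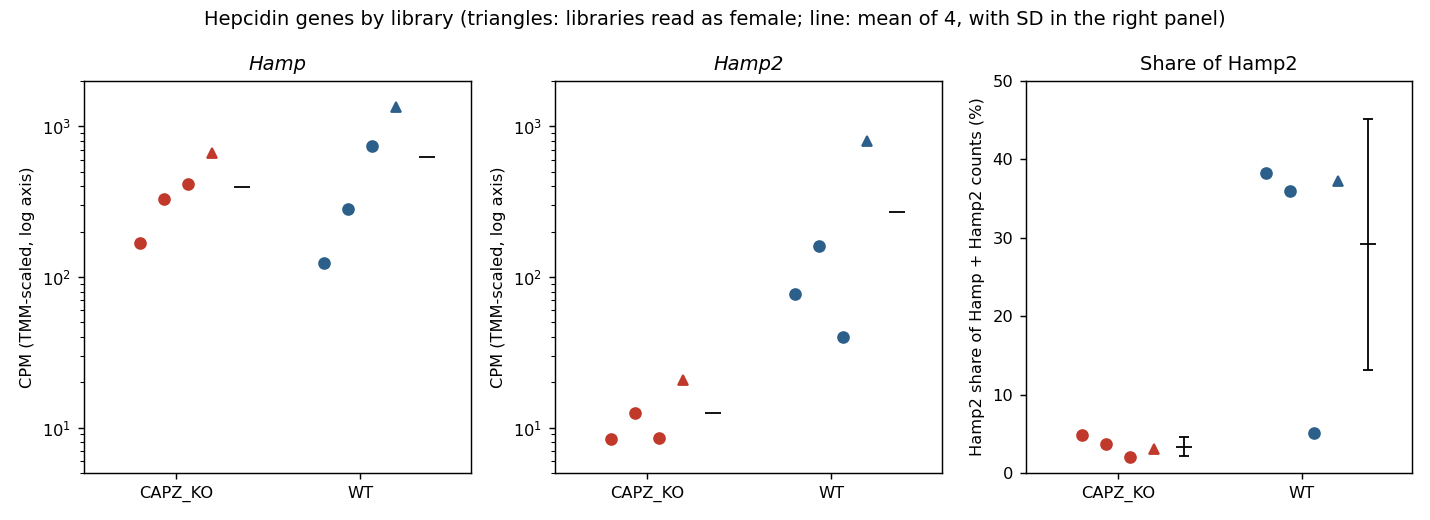
Hamp and Hamp2 by library (TMM-scaled CPM, log axes) and the share of Hamp2 in the counts of both (percent, right panel), CAPZ_KO left of WT, with triangles for libraries that read as female and a line for the mean of 4 (with the SD in the right panel). Hamp overlaps between the groups, Hamp2 does not, and the Hamp2 share is 1.99% to 4.78% in CAPZ_KO against 5.13% in WT 3 and at least 36% in WT 1, 2 and 4.

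Bmp6, at chr13:38345107-38500302 (plus), encodes the BMP ligand through which liver iron raises hepcidin. It had 17.7, 7.97, 18.4 and 16.5 CPM in CAPZ_KO livers, against 1.29, 4.01, 4.76 and 6.48 CPM in WT livers. Every CAPZ_KO library stood above every WT library, CAPZ_KO 2 being the lowest of its group. The level was 15.1 ± 4.84 CPM in CAPZ_KO and 4.13 ± 2.16 CPM in WT (SD, n = 4 each), a 3.58-fold difference. Its log2 fold change was 1.84 ± 0.409 (SE), at an edgeR adjusted p of 0.00565 and a 95% interval of 0.84 to 2.84. In bulk liver, more cells of a type and more RNA per cell cannot be told apart. Sinusoidal endothelial markers, the cells best known for Bmp6, summed to 381 to 601 CPM in CAPZ_KO and 346 to 531 CPM in WT, and 1 of 8, Pecam1, was called higher. Stellate cell markers summed to 825 to 1246 CPM in CAPZ_KO and 355 to 427 CPM in WT, with 7 of 8 called higher. Kupffer cell markers summed to 1434 to 4010 CPM in CAPZ_KO and 677 to 1680 CPM in WT, with 4 of 8 called higher. The share of all genes called higher, to set beside each of these marker counts, was 22.4%. The part of these cell types in the Bmp6 difference was not tested.

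Tfr2, at chr5:137569840-137587481 (plus), encodes transferrin receptor 2, the hepatocyte sensor of iron-loaded transferrin. It had 161, 247, 181 and 223 CPM in CAPZ_KO livers, against 493, 467, 482 and 390 CPM in WT livers. The groups were far apart, and the highest CAPZ_KO library stayed well below the lowest WT library. The mean was 203 ± 39.4 CPM in CAPZ_KO, 44.3% of the 458 ± 46.7 CPM in WT (SD, n = 4 each). On the log2 scale this is −1.17 ± 0.168 (SE), at an edgeR adjusted p of 0.000463 and a 95% interval of −1.58 to −0.76. It was −0.55 with library sizes alone. The median of the 9 tested hepatocyte markers was −1.42, and how far Tfr2 moves with them was not tested.

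Hfe, at chr13:23702034-23710854 (minus), encodes a membrane protein related to MHC class I that binds transferrin receptor 1 and is needed for a normal hepcidin response. It had 54.0, 79.9, 73.8 and 99.7 CPM in CAPZ_KO livers, against 67.7, 66.3, 65.5 and 73.8 CPM in WT livers. The WT libraries lay close together, inside the wider CAPZ_KO range. The log2 fold change was 0.17 ± 0.171 (SE, n = 4 each), with an edgeR adjusted p of 0.453.

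Tfrc, at chr16:32608920-32632794 (plus), encodes transferrin receptor 1, which takes up transferrin-bound iron. It had 42.1, 32.0, 56.8 and 64.0 CPM in CAPZ_KO livers, against 44.7, 51.7, 33.3 and 22.2 CPM in WT livers. The groups overlapped, with the extremes in the libraries that read as female, CAPZ_KO 4 the highest and WT 4 the lowest. The log2 fold change was 0.36 ± 0.282 (SE, n = 4 each), with an edgeR adjusted p of 0.331 and a 95% interval of −0.33 to 1.05. Slc11a2, at chr15:100387898-100425072 (minus), encodes the transporter DMT1 that moves ferrous iron out of endosomes. It spanned 29.2 to 37.0 CPM in CAPZ_KO and 20.3 to 42.6 CPM in WT, at 0.14 ± 0.202 (log2 ± SE, edgeR adjusted p = 0.600). Exons of Slc11a2 overlap the opposite-strand gene Gm5475 over 402 bases.

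Slc40a1, at chr1:45908068-45926523 (minus), encodes ferroportin, the target of hepcidin. It had 278, 325, 327 and 460.1 CPM in CAPZ_KO livers, against 164, 436, 264 and 466 CPM in WT livers. The groups overlapped, with WT 1 and WT 3 below every CAPZ_KO library and WT 4 above every one. The lowest library of each group, CAPZ_KO 1 and WT 1, was also the lowest of its group in the Kupffer cell and sinusoidal endothelial sums. The part of these cells in Slc40a1 was not tested. The log2 fold change was 0.06 ± 0.309 (SE, n = 4 each), with an edgeR adjusted p of 0.883.

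Cp, at chr3:19957054-20009145 (plus), encodes ceruloplasmin, the copper ferroxidase that the liver secretes and that helps iron load onto transferrin after export. It had 2570.3, 3400.1, 2522 and 3252 CPM in CAPZ_KO livers, against 1511, 2060.5, 1713 and 1202.5 CPM in WT livers. All CAPZ_KO libraries were above all WT libraries. The level was 2936 ± 455 CPM in CAPZ_KO and 1622 ± 360.1 CPM in WT (SD, n = 4 each), a 1.81-fold difference, with a log2 fold change of 0.86 ± 0.199 (SE), an edgeR adjusted p of 0.00656 and a 95% interval of 0.37 to 1.34. Exons of Cp overlap the opposite-strand gene Hps3 over 108 bases, and those of Bmp6 overlap Txndc5 over 224 bases. Exons of Ftl1, Hamp2, Il6ra, Stat3, Fbxl5, Alas1, Alas2, Acvr2a, Cebpa, Heph, Slc48a1, Cpox, Lyrm4 and Nfs1, given in other paragraphs, also overlap a gene on the opposite strand, and those of Ftl1, Trf and Nfs1 overlap another gene on the same strand. Whether the counting used strand is not given in the sources used here, so reads of such partners cannot be told apart.

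Fth1, at chr19:9980598-9985098 (plus), encodes the ferritin heavy chain, which oxidises iron for storage. It had 1952, 2764, 2236 and 2450.5 CPM in CAPZ_KO livers, against 3024, 2019, 1815 and 2268 CPM in WT livers. The CAPZ_KO values lay within the WT range, and the log2 fold change was 0.04 ± 0.195 (SE, n = 4 each, edgeR adjusted p = 0.876), with a 95% interval of −0.43 to 0.52. Ftl1, at chr7:45457944-45459884 (minus), encodes the light chain, which helps the iron core form. It spanned 2867 to 3209.5 CPM in CAPZ_KO and 2669.7 to 3625 CPM in WT, at −0.03 ± 0.149 (log2 ± SE, edgeR adjusted p = 0.900). Its 95% interval was −0.39 to 0.34, and with library sizes alone the value was 0.60. Ftl1 was the steadiest member in CAPZ_KO, with a coefficient of variation of 5.11% in CAPZ_KO and 12.4% in WT. The annotated processed copies of both ferritin genes are not analysed here, and reads they share with Fth1 and Ftl1 make those counts uncertain.

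**Figure D3:**
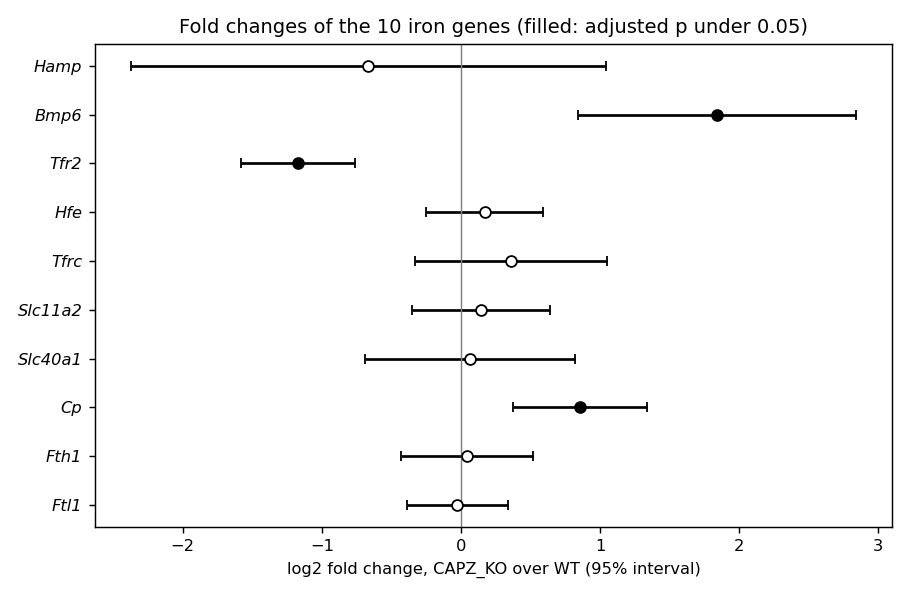
Log2 fold change of the 10 iron genes, CAPZ_KO over WT (horizontal axis, TMM scaling), with 95% intervals from the edgeR standard errors. The intervals of Bmp6 (0.84 to 2.84) and Cp (0.37 to 1.34) lie above 0, that of Tfr2 (−1.58 to −0.76) lies below 0, and that of Hamp (−2.37 to 1.04) is the widest of the 10.

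Levels of different genes were compared per kilobase of annotated exon, which includes exons that liver may not use. In CAPZ_KO the order was Ftl1 (2301 ± 118 CPM per kb), Hamp (961 ± 506), Fth1 (678 ± 98.9), Cp (307 ± 47.5), Tfr2 (46.8 ± 9.08), Slc40a1 (38.6 ± 8.72), Hfe (21.5 ± 5.27), Tfrc (7.88 ± 2.33), Slc11a2 (5.20 ± 0.529) and Bmp6 (3.88 ± 1.24) (SD, n = 4). The 10 genes had the same order in WT, with Ftl1 at 2343 ± 291 CPM per kb, Tfr2 at 106 ± 10.8 and Bmp6 at 1.06 ± 0.554 (SD, n = 4). In CAPZ_KO the ranges of Hamp and Fth1, of Tfr2 and Slc40a1, of Tfrc and Slc11a2, and of Slc11a2 and Bmp6 overlapped, so those neighbours did not differ beyond their spread. In WT the neighbours that overlapped were Ftl1 and Hamp, Hamp and Fth1, Slc40a1 and Hfe, and Tfrc and Slc11a2.

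Ratios of 2 genes within a library do not depend on the scaling, and 5 were set against each other by exact permutation of the libraries (two-sided), for which 0.0286 is the smallest p that 4 against 4 libraries allow. The log2 ratio of Tfrc to Tfr2, the receptor for uptake over the receptor for sensing, was −1.93, −2.95, −1.67 and −1.80 in CAPZ_KO and −3.46, −3.18, −3.85 and −4.13 in WT. It was higher in 4 of 4 CAPZ_KO libraries than in any WT library, by 1.57 on average (exact p = 0.0286, 0.0476 after Benjamini-Hochberg adjustment over the 5 ratios). By itself Tfr2 was called lower, and Tfrc was not called. The log2 ratio of Hamp to Id1, 2 genes that BMP signalling induces, was 2.41, 3.58, 3.76 and 4.38 in CAPZ_KO and 4.52, 6.39, 7.53 and 5.88 in WT. All 4 CAPZ_KO libraries stood below all 4 WT libraries, with a difference of −2.55 (exact p = 0.0286, adjusted 0.0476). By itself Hamp was not called, and Id1 was called higher, a call that ended without any single library other than WT 4. The log2 ratio of Hamp to Hamp2 was 4.91 ± 0.55 in CAPZ_KO and 1.62 ± 1.73 in WT (SD, n = 4 each, exact p = 0.0286, adjusted 0.0476), and the lowest CAPZ_KO library (4.31) was close to WT 3 (4.21). Hamp to Slc40a1, hormone over target, differed by −0.46 (exact p = 0.457, adjusted 0.486) with overlapping groups. Fth1 to Ftl1 was −0.40 ± 0.16 in CAPZ_KO and −0.48 ± 0.16 in WT (SD, n = 4 each, exact p = 0.486, adjusted 0.486).

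**Figure D4:**
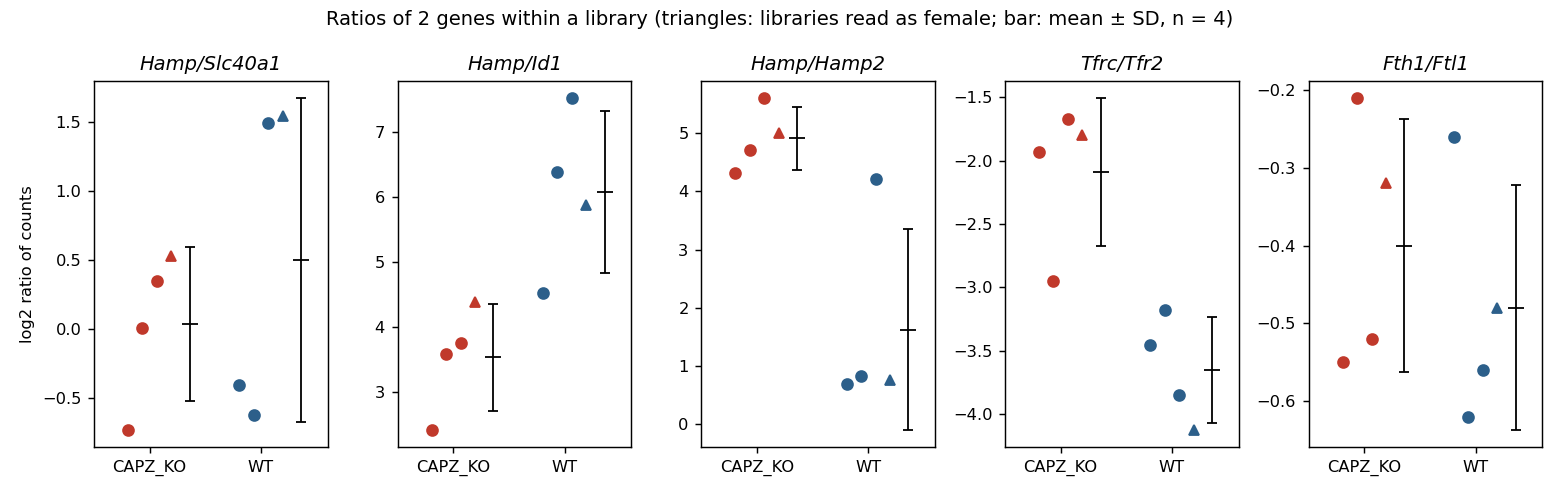
Log2 ratio of the counts of 2 genes within each library for 5 gene pairs, CAPZ_KO left of WT, 1 point per library, with the mean ± SD beside the points. Tfrc/Tfr2 and Hamp/Hamp2 are higher in all CAPZ_KO libraries than in any WT library, Hamp/Id1 is lower in all of them, and Hamp/Slc40a1 and Fth1/Ftl1 overlap.

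In the BMP-SMAD list, 16 of 17 genes in the table were tested, 2 were higher and 3 lower in CAPZ_KO, and the median log2 fold change was −0.07. Over all genes tested, 22.4% were called higher and 19.0% lower. Id1, an inhibitor of helix-loop-helix factors and a standard readout of BMP signalling, had 31.5, 27.5, 30.6 and 31.9 CPM in CAPZ_KO livers, against 5.36, 3.36, 3.97 and 22.9 CPM in WT livers. The CAPZ_KO libraries were tightly grouped and all above WT 4, which was far above the other WT libraries. Its log2 fold change was 1.76 ± 0.569 (SE, n = 4 each, edgeR adjusted p = 0.0361), and 2.85 without WT 4, while leaving out any other library ended the call (adjusted p 0.0639 to 0.0862), as did a minimum total count of 1 (0.0736). Tmprss6, the protease that cuts hemojuvelin and so restrains hepcidin, had 319, 340.4, 374 and 386 CPM in CAPZ_KO and 565, 563, 657 and 524 CPM in WT, at −0.70 ± 0.136 (log2 ± SE, edgeR adjusted p = 0.00256). Fgl1, a liver-secreted protein reported in mice to hold back BMP signalling to hepcidin, was at −0.98 (edgeR adjusted p = 0.00862), and the activin receptor gene Acvr2a at −0.73 (edgeR adjusted p = 0.00312). Tmprss6 was at −0.08, Fgl1 at −0.36 and Acvr2a at −0.10 with library sizes alone, and none of the 3 was called. Smad1, a BMP-activated SMAD, was at 0.41 (edgeR adjusted p = 0.0248), a call that ended without any 1 of the 4 CAPZ_KO libraries, WT 2 or WT 3 (0.0503 to 0.0957). The hemojuvelin gene, listed as Hfe2, was at 0.16 (edgeR adjusted p = 0.575) and was called at 0.41 without WT 1. Bmp2, the other endothelial BMP ligand, was at −0.32 (edgeR adjusted p = 0.164) and at 0.29 with library sizes alone. Smad7, a feedback inhibitor, was at 0.41 (edgeR adjusted p = 0.313) and was called at 0.73 without WT 4. Fam132b, the erythroferrone gene, had 0 to 4 counts in CAPZ_KO and 0 to 1 in WT and was not tested.

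In the list for interleukin 6, activin and STAT3, 8 of 9 genes were tested, 1 was higher and 1 lower, with a median of −0.12. The shares over all genes were 22.4% higher and 19.0% lower. Inhbb, the subunit of activin B, which can raise hepcidin in inflamed mouse liver, had 17.4, 13.7, 11.6 and 10.99 CPM in CAPZ_KO livers, against 1.18, 1.32, 1.14 and 3.37 CPM in WT livers. Its log2 fold change was 2.91 ± 0.352 (SE, n = 4 each, edgeR adjusted p = 0.000195). Cebpa, a hepatocyte transcription factor that binds the hepcidin promoter, averaged 168 ± 18.7 CPM in CAPZ_KO and 390.3 ± 65.9 CPM in WT (SD, n = 4 each), at −1.22 (edgeR adjusted p = 0.000261). Il6ra, the interleukin 6 receptor, was at −1.44 and not called (edgeR adjusted p = 0.0788), but passed without the female libraries (−1.62, adjusted p = 0.0393), without CAPZ_KO 4 (−2.01, 0.0272) and without WT 1 (−1.75, 0.0298), in a range of 0.00299 to 0.208 over all alternatives. Stat3 was at −0.28 (edgeR adjusted p = 0.0801) and was called lower by the DESeq2 Wald test (−0.30, adjusted p = 0.0309) and higher with library sizes alone (0.34, 0.0225), in a range of 0.0225 to 0.218 over all alternatives. Its target Socs3 was at −0.14 (edgeR adjusted p = 0.868) and changed sign without WT 3, at 0.77. Il6 itself had 0 to 3 counts in CAPZ_KO and 1 to 7 in WT and was not tested.

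In the list for iron sensing and ferritin turnover, all 9 genes were tested, 0 were higher and 3 lower at an edgeR adjusted p under 0.05, with a median of −0.17. Beside these counts, 22.4% of all genes were called higher and 19.0% lower. Ireb2, which encodes iron regulatory protein 2, had 73.5, 53.1, 57.5 and 59.8 CPM in CAPZ_KO livers, against 92.5, 104, 130 and 115 CPM in WT livers. The groups were apart, and the log2 fold change was −0.86 ± 0.148 (SE, n = 4 each, edgeR adjusted p = 0.00135). Epas1, the hypoxia factor HIF-2 alpha, was at −0.73 (edgeR adjusted p = 0.0143), and Aco1, iron regulatory protein 1, at −0.38 (edgeR adjusted p = 0.0317). The call of Aco1 ended without CAPZ_KO 1, 2 or 3 or WT 3 (0.0517 to 0.0764), without both female libraries (0.0593), with upper-quartile scaling (−0.30, 0.0747) and with a minimum total count of 1 (0.052). With library sizes alone Ireb2 was at −0.23 and Epas1 at −0.12, neither called, and Aco1 was at 0.24. Fbxl5, which targets iron regulatory protein 2 for degradation, was at 0.09 (edgeR adjusted p = 0.634), and Ncoa4, the ferritin autophagy receptor, at −0.01 (edgeR adjusted p = 0.974) with a sign that varied among scalings.

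In the list of carriers, reductases and oxidases, 13 of 14 genes were tested, 3 were higher and 4 lower, with a median of −0.14. Among all genes the shares called were 22.4% higher and 19.0% lower. Lcn2, the siderophore-binding protein lipocalin 2, had 486, 1693, 735 and 1499.6 CPM in CAPZ_KO livers, against 123, 57.3, 13.3 and 119 CPM in WT livers, the groups lying far apart. Its log2 fold change was 3.82 ± 0.720 (SE, n = 4 each, edgeR adjusted p = 0.00327). Neutrophils also make Lcn2, and neutrophil markers summed to 26.3 to 47.3 CPM in CAPZ_KO and 6.53 to 33.6 CPM in WT, with 1 of 6 tested called higher. Monocyte-derived macrophage markers summed to 156 to 250.4 CPM in CAPZ_KO and 27.9 to 51.5 CPM in WT, with 7 of 8 higher, and the part of either cell type in Lcn2 was not tested. Slc39a14, the importer ZIP14 of iron not bound to transferrin, had 90.4, 150.1, 112 and 146 CPM in CAPZ_KO livers, against 208, 329, 259 and 276 CPM in WT livers. It was at −1.10 ± 0.200 (log2 ± SE, edgeR adjusted p = 0.00178), and at −0.50 with library sizes alone. Its relative Slc39a8 was at −0.90 (edgeR adjusted p = 0.00293) and, with library sizes alone, at −0.26 and not called. The ferroxidase gene Heph was higher at 1.03 (edgeR adjusted p = 0.0122). Trf, which encodes transferrin, spanned 21884 to 29253 CPM in CAPZ_KO and 21351 to 30726 CPM in WT, at −0.04 (edgeR adjusted p = 0.871), and at 0.58 with library sizes alone. The reductase gene Steap3 was at 0.19 (edgeR adjusted p = 0.414).

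Of the haem uptake and breakdown genes, 10 were tested, 1 was higher and 1 lower, with a median of 0.17, which was −0.06 without the female libraries. For all genes tested the shares were 22.4% higher and 19.0% lower. Slc48a1, a haem transporter of the endolysosome, averaged 124 ± 9.39 CPM in CAPZ_KO and 63.2 ± 7.37 CPM in WT (SD, n = 4 each), with groups apart, at 0.97 ± 0.123 (log2 ± SE, edgeR adjusted p = 0.000248). Lrp1, the receptor for the haem-hemopexin complex, was at −0.70 (edgeR adjusted p = 0.0125) and, with library sizes alone, at −0.07 and not called. Hmox1, haem oxygenase 1, had 50.5, 90.9, 82.7 and 187 CPM in CAPZ_KO livers, against 26.0, 38.2, 43.8 and 100.5 CPM in WT livers. The highest value of each group was in its female library, and the groups overlapped. Hmox1 was not called (0.98, edgeR adjusted p = 0.143), but it passed without the female libraries (1.05, adjusted p = 0.0138), with sex as a term (0.00431) and without WT 4 (1.5, 0.0227), in a range of 0.000504 to 0.396 over all alternatives. Hpx was at 0.27, Hp at −0.14 and Cd163, the haptoglobin-haemoglobin receptor of macrophages, at 0.70 (edgeR adjusted p 0.425, 0.751 and 0.645). Without WT 1 Hp was at 0.14, and without CAPZ_KO 4 Cd163 was at −0.75.

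Of the 9 haem synthesis genes, 7 were lower and 0 higher in CAPZ_KO at an edgeR adjusted p under 0.05, with a median of −0.76. The background for this list and the iron-sulphur list below is 19.0% of all genes called lower and 22.4% higher. Alas2, the synthase form known from erythroid cells, had 9.96, 7.42, 8.41 and 12.2 CPM in CAPZ_KO livers, against 62.8, 48.2, 142 and 16.2 CPM in WT livers. WT 4 was the WT library nearest to the CAPZ_KO range, and the log2 fold change was −2.82 ± 0.574 (SE, n = 4 each, edgeR adjusted p = 0.00469). The haemoglobin genes Hba-a1, Hba-a2, Hbb-bs and Hbb-bt were listed at 0 in all 8 libraries. Why these rows hold only 0 is not given in the sources used here, so they cannot tell whether red cell RNA was present. Of the erythroid markers, 2 were tested, and Klf1, an erythroid transcription factor, was called lower, at 0.406, 1.69, 0.242 and 1.89 CPM in CAPZ_KO and 2.36, 3.82, 2.84 and 10.8 CPM in WT (−2.23 ± 0.685, log2 ± SE, edgeR adjusted p = 0.0268). Epor, the erythropoietin receptor, was at −0.44 (edgeR adjusted p = 0.544). The part of red cell precursors in Alas2 and the other haem synthesis genes was not tested. Alas1, the liver form, was at −1.40 (edgeR adjusted p = 0.0464), a call that ended when any library except WT 1 was left out (0.0526 to 0.127). Cpox was at −1.09, Fech at −0.80 and Urod at −0.76 (edgeR adjusted p 0.00312, 0.00242 and 0.00121), with groups apart in each. Only Alas2 of the 9 was called with library sizes alone, at −2.18, and the list median was −0.13. Without the female libraries 5 of the 9 were called lower, and 4 of the 9 without CAPZ_KO 4 and with upper-quartile scaling. Of the 6 iron-sulphur assembly genes compared here, 3 were lower and 0 higher at an edgeR adjusted p under 0.05, with a median of −0.36. These were Lyrm4 (−0.57), Glrx5 (−0.51) and Nfs1, the cysteine desulfurase (−0.42), and all 3 were above 0 with library sizes alone, at 0.05, 0.10 and 0.20. Abcb8, a mitochondrial transporter gene, was at −0.30 and not called (edgeR adjusted p = 0.0814), and with library sizes alone it was called at 0.33. How far the haem and iron-sulphur genes move with the hepatocyte markers was not tested.

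**Figure D5:**
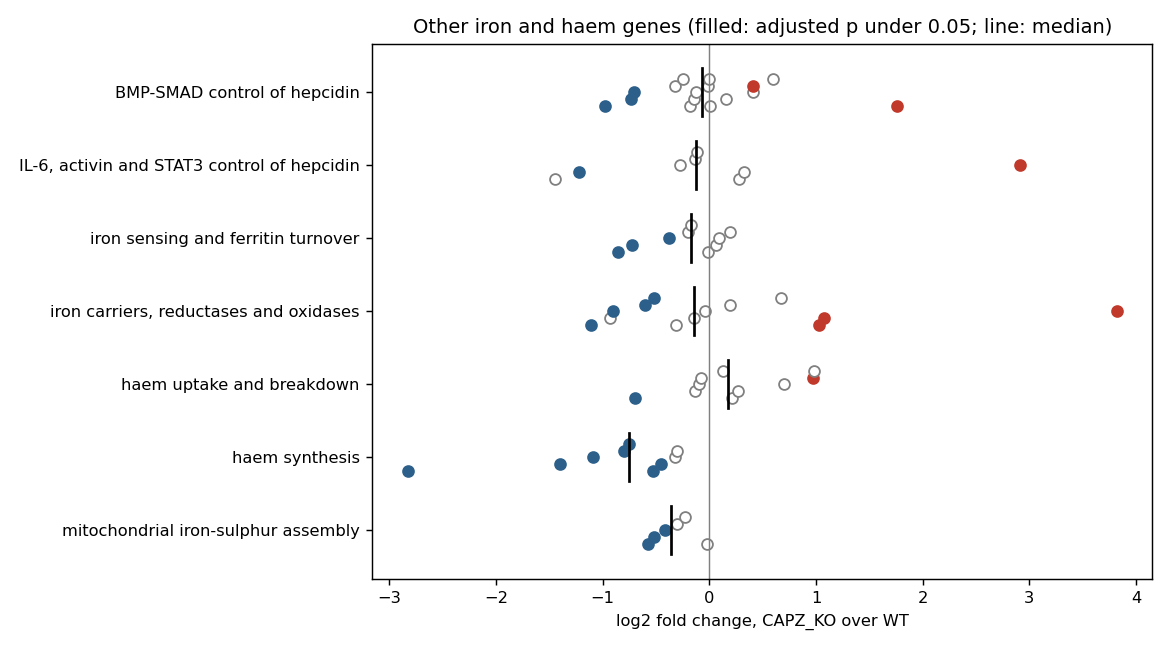
Log2 fold change, CAPZ_KO over WT (TMM scaling), of every tested gene of the 7 supporting lists, 1 row of points per list, with called genes in colour. In the haem synthesis row 7 of 9 points are called lower and the median is −0.76, while the BMP-SMAD row has 2 called higher and 3 called lower around a median of −0.07. Of all genes tested, 22.4% were called higher and 19.0% lower.

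The tested genes whose profile over the 8 libraries was nearest to that of Hamp, by root mean square difference of centred log2(CPM + 1), were Nrg4 (0.392), Rhobtb1 (0.444), Abhd15 (0.533), Glt1d1 (0.539) and Zbtb16 (0.561), against a median of 1.117 over 9694 candidates. Nrg4 had 4.28, 14.1, 11.01 and 28.9 CPM in CAPZ_KO livers, against 2.47, 13.03, 22.8 and 28.3 CPM in WT livers, so that the female libraries were the highest in both groups, as for Hamp. For Tfrc the nearest were Bag3 (0.206), Fam98a (0.242), Inpp5f (0.261), Irgq (0.261) and Rrp12 (0.262), against a median of 0.555. Bag3, a co-chaperone gene, had 36, 36.2, 46.0 and 48.1 CPM in CAPZ_KO livers, against 41.4, 55.1, 38.1 and 20.4 CPM in WT livers, with WT 4 the lowest library, as for Tfrc. These are descriptions over 8 libraries that share depth and sex differences.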

How the data were processed

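Poly(A) RNA of liver was sequenced from stranded libraries, per the labels' protocols. The authors deposited unscaled read counts, with 1 row per gene symbol and 1 column per library. The submitters' processing notes name STAR 2.5.3a, featureCounts and edgeR, and the build mm10. How strand and shared reads were handled, and which annotation was used, is not given in the sources used here.

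Genes were kept by filterByExpr (minimum count 10, minimum total 15), scaled by TMM and tested with the edgeR 4.0.16 quasi-likelihood test (robust dispersion, no covariate, R 4.3.3), with Benjamini-Hochberg adjustment over 12985 genes and a threshold of 0.05. Intervals of 95% use 6 degrees of freedom. Ratios used counts + 0.5 and exact permutation tests (scipy 1.17.1) over 70 arrangements. Positions come from GENCODE vM21 (GRCm38).

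Members and lists were chosen with earlier results of these data known. A few list genes are not reported here and were left out of the list counts. Named genes are the 10 members, a set list of related genes, up to 4 genes of smallest p per list, and the 5 profiles nearest to Hamp and Tfrc. Alternatives were other scalings and filters, DESeq2 1.42.0, limma-voom 3.58.1, a replicate block, a sex term, and leaving out libraries. No library was a duplicate of another of its group (chi-square per degree of freedom from 25.2 upward).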

Additional observations from a re-analysis of the deposited data

Results flagged for a closer look

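In 116 groups of 4 libraries, the gap of the highest or lowest library to its nearest neighbour was set against the whole range. For genes this was done on log2(CPM + 1) and for ratios on the log2 ratio, so the CPM printed below do not give it directly. On these scales 5 stood apart (gap over range above 0.829, which chance gives in about 1 of 20 groups). Bmp6 in CAPZ_KO 2 was at 7.97 CPM, against 16.5 to 18.4 CPM in the other CAPZ_KO libraries, still above every WT library. The log2 ratio of Hamp to Hamp2 in WT 3 was 4.21, against 0.69 to 0.83 in the other WT libraries. Inhbb in WT 4 was at 3.37 CPM, against 1.14 to 1.32 CPM in the other WT libraries. Lrp1 in CAPZ_KO 3 was at 237 CPM, against 372 to 408 CPM in the other CAPZ_KO libraries. Nfs1 in WT 3 was at 84.7 CPM, against 72.5 to 74.0 CPM in the other WT libraries.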

How the results depend on the processing

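Bmp6, Cp and Tfr2 kept direction and call under every alternative run. With library sizes alone 7665 genes were called higher and 700 lower, against 2913 and 2469 with TMM, and the median gene was at 0.622. Under that scaling Tfrc (1.00), Slc11a2 (0.78), Fth1 (0.66) and Hfe (0.78) became called, as did Hfe2 (0.79), Smad7 (1.01), Fbxl5 (0.72), Steap3 (0.82), Hmox1 (1.56), Hpx (0.90), Cdc42bpa (0.82) and Blvrb (0.83), and the sign turned for Ftl1 (0.60, called), Trf (0.58, called), Stat3 (0.34, called), Bmp2 (0.29), Socs3 (0.47), Aco1 (0.24), Ncoa4 (0.60), Hp (0.49), Lyrm4 (0.05), Nfs1 (0.20), Glrx5 (0.10) and Abcb8 (0.33, called). Relative to TMM, this scaling moves all genes in the same direction, and which of the scalings is nearer to the true levels was not tested. The sign of Ftl1, Ncoa4 and Trf also turned with upper-quartile scaling (0.05, 0.07 and 0.04) and with a minimum count of 50 (0.02, 0.03 and 0.00), and that of Socs3 with limma-voom (0.13), all uncalled. Without the female libraries Cd163 was at −0.24. The cause of these turns was not tested. Leaving out each library gave −1.05 to 0.03 for Hamp, −0.17 to 0.26 for Slc40a1, −0.02 to 0.34 for Slc11a2, −0.08 to 0.20 for Fth1, −0.10 to 0.04 for Ftl1, −0.48 to 0.77 for Socs3, 0.00 to 0.18 for Fbxl5, −0.24 to 0.12 for Ncoa4, −0.16 to 0.03 for Trf, −0.34 to 0.14 for Hp and −0.75 to 1.20 for Cd163.

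Same-numbered libraries deviated together with correlations of 0.24, 0.01, 0.07 and 0.30, not every pair above 0.1, and CAPZ_KO 2 correlated best with WT 4 (0.11), so the numbers were not taken as pairs. The values of numbers 1 and 4 were the largest of all 16 cross-group pairs, and both number 4 libraries read as female. With the replicate block 2974 genes were called higher and 2411 lower, Hamp2 was at −3.61, Hmox1 (1.01) and Il6ra (−1.43) passed, and the uncalled Socs3 (0.19) and Ncoa4 (0.01) turned sign. The block changed no other call or sign among the named genes. Leaving out a library kept the sign of all 5 ratios, as values with no test. The filter on low counts left Fam132b, Il6 and Steap1 untested, at 0 to 17 counts a library in CAPZ_KO and 0 to 7 in WT.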
